A study of Homo sapiens with 8 samples.

Results

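Several miRNA hairpins lie inside the human HOX gene clusters, and the 5 mature miRNAs hsa-miR-10a-5p, hsa-miR-10b-5p, hsa-miR-196a-5p, hsa-miR-196b-5p and hsa-miR-615-3p that come from them were followed here in 2 breast cancer cell lines. They were chosen by genome position and name, with earlier results of these data known. All 5 were found on the array (miRBase release 19), on which 307 human miRNAs were detected at least once and 1699 were not. BT474 is labelled ER+, HER2+ and PR+, and SKBR3 is labelled ER-, HER2+ and PR+, whereas the methods of the study give SKBR3 as PR-. Both lines overexpress HER2 (ERBB2), the receptor that the antibody trastuzumab binds. Cells of each line were kept for 144 h with 6 µg/mL trastuzumab or with PBS as the control, and the labels give 2 biological replicates for each line and treatment, each an established line at 1 dose and 1 time. RNA of each culture was read on a one-colour Agilent array, 8 by the labels.

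The array labelled SKBR3 PBS replicate 1 holds the same value as BT474 PBS replicate 1 at all 62344 spots, so that 7 distinct arrays remain. It was left out, which leaves 4 BT474 arrays (2 PBS and 2 trastuzumab) and 3 SKBR3 arrays (1 PBS and 2 trastuzumab), and results that change with it are given both ways. On the slide, all PBS arrays lie in row 2 and all trastuzumab arrays in row 1, so that treatment and row cannot be told apart. The BT474 arrays lie in columns 1 and 2 and the 3 SKBR3 arrays in columns 3 and 4. Line and column therefore cannot be told apart either. Detected miRNAs numbered 247 to 256 on the BT474 arrays and 201 to 218 on the SKBR3 arrays. The epithelial miRNAs miR-200c-3p and miR-141-3p were detected on all 7 arrays, but miR-200a-3p, miR-200b-3p and miR-429 on no SKBR3 array, and the summed level of these 5 was 29800 to 39078 in BT474 and 12720 to 17623 in SKBR3. Of the miR-4728 arms, encoded inside ERBB2, the 5p arm was detected on the 3 SKBR3 arrays and the 3p arm on 2 BT474 arrays. Of 5 miRNAs of fibroblasts or smooth muscle, 0 were detected. Among the blood, endothelial and muscle miRNAs, only miR-451a, miR-126-3p and miR-1 were detected, in BT474 alone. miR-451a reached 57.3 on 1 array and miR-126-3p at most 88.5, and miR-1 had a signal of 127 to 382 on the 4 BT474 arrays. The part of these markers in the differences between the lines was not tested.

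HOX genes encode transcription factors that set the position of structures along the body axis, and they stand in 4 clusters, HOXA to HOXD. The miRNAs between them belong mainly to the miR-10 and miR-196 families, which occur at corresponding places in several clusters. A miRNA pairs with messenger RNAs mostly through its seed, bases 2 to 8 from its 5′ end, and represses them. Members of both families are known to repress HOX genes, and miR-10b is known for its study in breast cancer cell migration.

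The hairpins were placed with the RefSeq annotation of GRCh38.p14. MIR10A lies in the HOXB cluster at chr17:48579838-48579947 on the minus strand, inside the span of HOXB3 and 1487 bases from the end of HOXB4. MIR10B lies in the HOXD cluster at chr2:176150303-176150412 on the plus strand, between HOXD8 and HOXD4, 1137 bases from HOXD4. The miR-196 family has 3 hairpins. MIR196A1 is at chr17:48632490-48632559 on the minus strand, 6131 bases beyond HOXB9 and inside the long noncoding gene HOXB-AS4. MIR196A2 is at chr12:53991738-53991847 on the plus strand, between HOXC10 and HOXC9. MIR196B is at chr7:27169480-27169563 on the minus strand, between HOXA9 and HOXA10 and inside HOXA10-AS. MIR615 is at chr12:54033950-54034045 on the plus strand, inside the spans of HOXC4 and HOXC5. The mature sequences of 4 members, from RefSeq, are shown because their seeds group the members and because miR-196a-5p and miR-196b-5p must be told apart by a single base. The seed is in capitals.
hsa-miR-10a-5p: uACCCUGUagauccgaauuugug
hsa-miR-196a-5p: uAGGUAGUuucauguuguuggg
hsa-miR-196b-5p: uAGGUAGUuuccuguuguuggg
hsa-miR-615-3p: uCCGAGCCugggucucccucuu
hsa-miR-196a-5p and hsa-miR-196b-5p shared the seed and 21 of 22 bases, and differed by A12C, counted from the 5′ end of miR-196a-5p. MIR196A1 and MIR196A2 give the same mature hsa-miR-196a-5p, so that the array cannot tell its HOXB from its HOXC copy. hsa-miR-615-3p shared its seed with no other sequence shown.

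The array carries 30 spots for each miRNA, and the software sums the probes it accepts into 1 signal per miRNA, with a flag for detection. Of the 5 members, hsa-miR-196a-5p was detected on all 7 arrays, hsa-miR-10b-5p and hsa-miR-615-3p on the 4 BT474 arrays and on no SKBR3 array, and hsa-miR-10a-5p and hsa-miR-196b-5p on no array. Over all human miRNAs of the array, 173 (8.62%) were detected on all 7 arrays, 38 (1.89%) on all BT474 and no SKBR3 array, 6 (0.299%) the other way round, and 1699 (84.7%) on no array. The members thus fell into the first, the second and the last of these patterns.

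**Figure D1:**
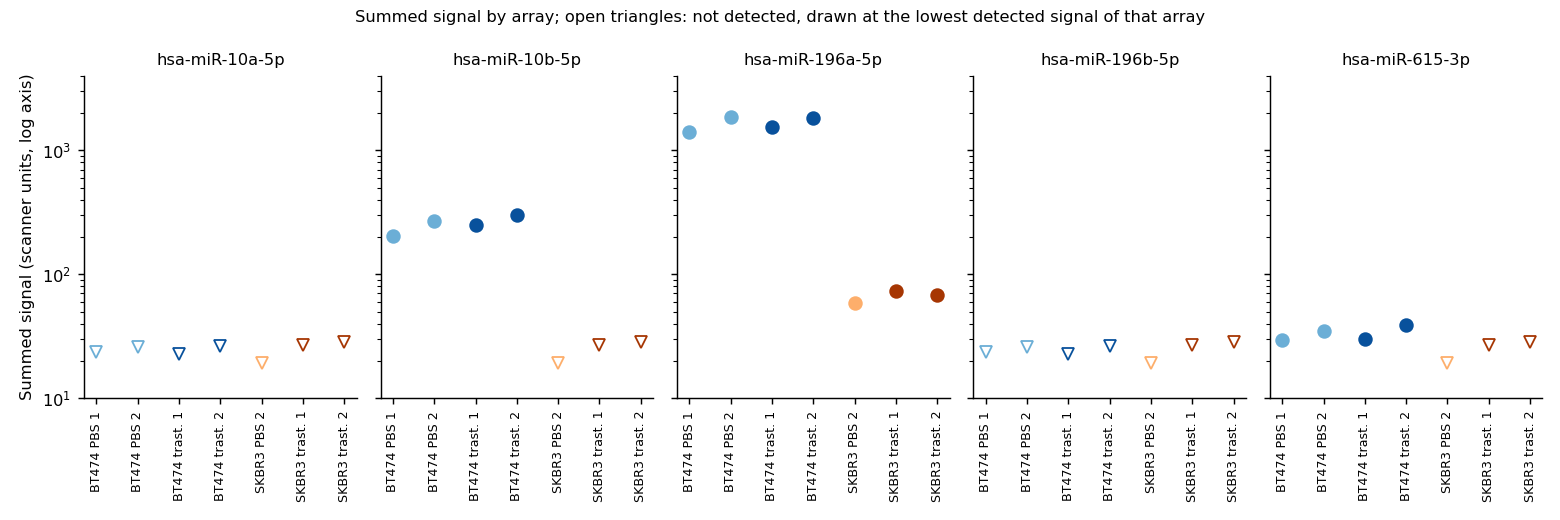
Summed signal of each member (scanner units, log axis) on the 7 distinct arrays; filled circles are detected values, and open triangles mark arrays without detection, drawn at the lowest detected signal of that array. hsa-miR-196a-5p lies between 1399 and 1853 in BT474 and between 58.9 and 72.9 in SKBR3, and hsa-miR-10b-5p and hsa-miR-615-3p have circles in BT474 only.

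hsa-miR-196a-5p was the only member detected in both lines, and it was higher in BT474. Its summed signal was 1399 and 1853 on the BT474 PBS arrays and 1546 and 1838 on the BT474 trastuzumab arrays. In SKBR3 it was 58.9 on the PBS array and 72.9 and 68.3 on the trastuzumab arrays. Every BT474 array was far above every SKBR3 array, while the treatments overlapped within BT474. In BT474 the mean was 1659 ± 223 (SD, n = 4) and in SKBR3 66.7 ± 7.12 (SD, n = 3). In RNA from whole cultures, fewer cells with a miRNA and less of it in each cell cannot be told apart.

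For the test between lines, quantile normalization was applied to the sums of the 7 arrays, and log2 values were used with a floor at a signal of 10. In limma, a miRNA was called at a Benjamini-Hochberg adjusted p under 0.05 over all 305 miRNAs tested. hsa-miR-196a-5p was higher in BT474 by 3.31 on the log2 scale (SE 0.0917, 95% CI 3.05 to 3.57, adjusted p = 4.74e-05), a fold of 9.90 (8.27 to 11.9). Of the 305 miRNAs, 102 (33.4%) were called higher in BT474, hsa-miR-196a-5p among them. hsa-miR-10b-5p and hsa-miR-615-3p entered this test only through BT474, with SKBR3 at the floor, and no count over the members is drawn from it. Within the PBS arrays alone the log2 difference of hsa-miR-196a-5p was 3.19 (SE 0.132, adjusted p = 0.0230), with 1 SKBR3 PBS array that was assumed to vary like the BT474 PBS arrays, and within the trastuzumab arrays 3.43 (SE 0.110, adjusted p = 0.00106, limma).

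The size of the fold depended on the scaling. It was 13.6 with scaling to the 75th percentile and 25.6 with no scaling, against 9.90 with quantile normalization. With normexp background correction of the spots, which adds an offset of 50 to each signal, the log2 difference fell from 3.31 to 2.33. Over the 173 miRNAs detected on all arrays, the median log2 difference between the lines was -0.42 with quantile normalization, -0.20 with the 75th percentile and 0.71 with no scaling. Relative to these medians, hsa-miR-196a-5p was higher in BT474 by 3.72, 3.97 and 3.97. The split of calls over all miRNAs moved as well, from 102 higher and 107 lower with quantile normalization to 122 and 91 with the 75th percentile and 165 and 21 with no scaling.

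Both probes of hsa-miR-196a-5p were higher in BT474. In BT474 the summed signal of hsa-miR-196a-5p held both of its probes, whereas in SKBR3 it held only the brighter one, A_25_P00012053, on all 3 arrays. Folds from the sums thus set both probes against the brighter one alone. With no scaling, the fold of 25.6 from the sums was above the ratios of the single probes, 18.3 and 17.0. The signal of this probe was 1035 to 1364 in BT474 and 58.9 to 72.9 in SKBR3, a ratio of the means of 18.3. For the dimmer probe, A_25_P00012052, it was 365 to 499 in BT474 and 21.6 to 29.4 in SKBR3, a ratio of 17.0. Fitted as single probes, they were higher in BT474 by 3.25 (SE 0.0355, limma adjusted p = 3.68e-05) and 3.24 (SE 0.134, adjusted p = 0.000463). Spots well above background numbered 120 of 120 in BT474 and 16 of 90 in SKBR3, and all 16 belonged to the brighter probe.

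**Figure D2:**
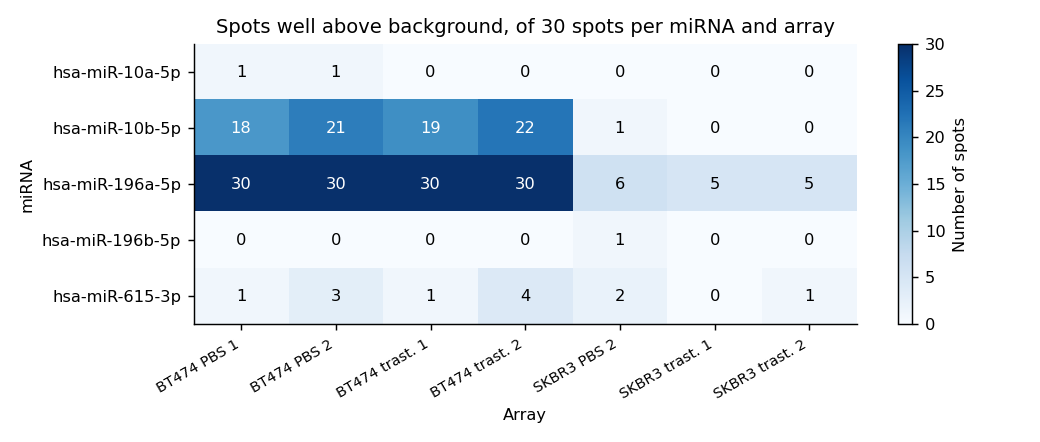
Number of spots, of 30, that the software marked as well above background, for each member (vertical axis) on each array (horizontal axis). hsa-miR-196a-5p reaches 30 on every BT474 array and 5 or 6 on the SKBR3 arrays, hsa-miR-10b-5p reaches 18 to 22 in BT474 and at most 1 in SKBR3, and the other members stay at 4 or fewer.

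hsa-miR-10b-5p was measured in BT474 and not detected in SKBR3. Its summed signal was 203 and 269 on the BT474 PBS arrays and 248 and 303 on the BT474 trastuzumab arrays, with a mean of 256 ± 41.8 (SD, n = 4). On the SKBR3 arrays it was listed as not detected on the PBS array and on both trastuzumab arrays. The lines therefore did not overlap, and the treatments did within BT474. Set against the lowest detected signal of each SKBR3 array, the BT474 level was at least 3.33-fold higher after quantile normalization and at least 11.0-fold higher with no scaling. The normalized means were 7.66 in BT474 and at the floor in SKBR3 (log2). The limma fit gave an adjusted p of 1.60e-05, but hsa-miR-10b-5p passed the filter only through BT474, and its constant SKBR3 values add no spread, so that the size and the p depend on the floor. With normexp background correction, which sets no floor but adds an offset of 50 to each signal, the log2 difference was 1.42 (adjusted p = 1.15e-08, limma). The offset draws low signals together, so that this size and p depend on it. Each of its arrays in BT474 was above each in SKBR3, as for 85 (27.9%) of the 305 miRNAs tested. For hsa-miR-196a-5p the lines did not overlap either.

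Both probes of hsa-miR-10b-5p carried the BT474 signal. The brighter one, A_25_P00012083, gave 71.5% to 72.6% of the sum on the 4 BT474 arrays, and its spots were well above background in 60 of 60 cases there. In SKBR3 this held for 1 of its 45 spots, on the PBS array. The dimmer probe, A_25_P00012082, had 20 of 60 such spots in BT474 and 0 of 45 in SKBR3. As single probes they were higher in BT474 by 3.68 (SE 0.0602, limma adjusted p = 6.04e-05) and 2.54 (SE 0.0587, adjusted p = 0.000127) on the log2 scale, with SKBR3 values at or near the floor, on which these sizes and p-values depend.

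The mean background-subtracted intensity of the brighter hsa-miR-10b-5p probe in SKBR3 was 97.7 on the PBS array and 31.3 and 5.00 on the trastuzumab arrays. The spots of the PBS array had an SD of 155 around that mean, 2 of its 15 spots were marked as outliers by the software, and their median was 77.8. On the BT474 arrays the same probe had means of 664 to 1021, so that the SKBR3 values are low on all 3 arrays.

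**Figure D3:**
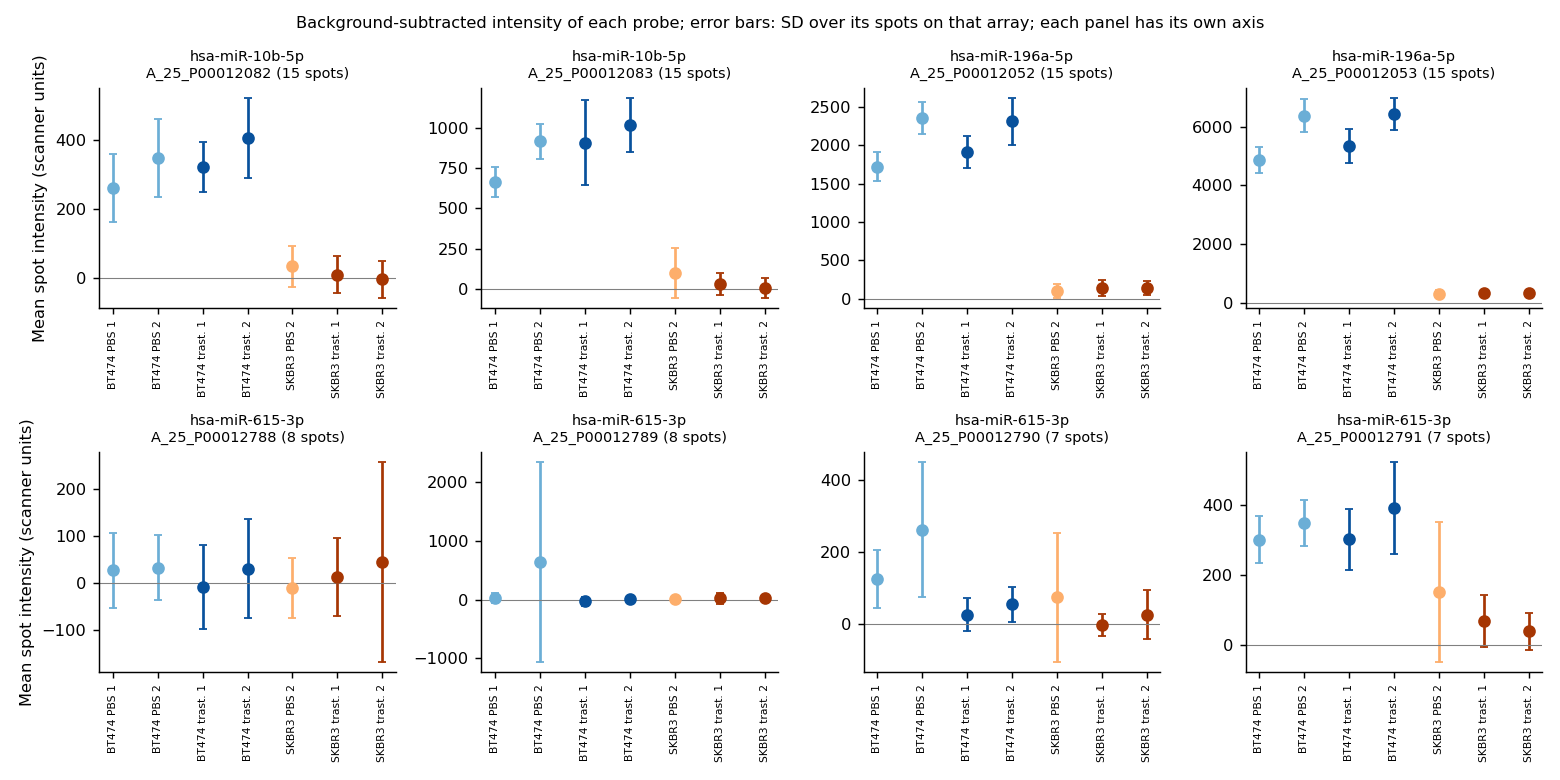
Mean background-subtracted intensity (scanner units, vertical axis, 1 scale for each panel) of every probe of hsa-miR-10b-5p, hsa-miR-196a-5p and hsa-miR-615-3p on the 7 arrays; error bars are the SD over the spots of the probe on that array. Both probes of hsa-miR-10b-5p and of hsa-miR-196a-5p separate BT474 from SKBR3, and for hsa-miR-615-3p only A_25_P00012791 lies at 299.5 or above on all BT474 arrays.

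hsa-miR-615-3p was close to the detection limit. Its summed signal was 29.6 and 34.5 on the BT474 PBS arrays and 29.8 and 38.6 on the BT474 trastuzumab arrays, and it was not detected in SKBR3. The treatments overlapped within BT474. The lowest detected signals of any miRNA were 22.6 to 26.3 on the BT474 arrays and 19.3 to 28.3 on the SKBR3 arrays, so that the BT474 values lay just above these limits. Well above background were 9 of 120 spots in BT474 and 3 of 90 in SKBR3. With no scaling the BT474 level was at least 1.43-fold higher, and after quantile normalization no bound above 1 could be given.

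The sum of hsa-miR-615-3p rested on 1 of its 4 probes, A_25_P00012791, on each BT474 array. This probe had a signal of 29.6 to 38.6 in BT474 and 3.78 to 7.88 in SKBR3, with a ratio of the means of 5.41. After quantile normalization it lay at the floor on all 3 SKBR3 arrays and had equal values on both arrays of each BT474 treatment, so that its fit has no measured spread and no p is given. A_25_P00012790, the next brightest, was not called (0.20, SE 0.10, limma adjusted p = 0.221), and the other probes were at the floor. On BT474 PBS replicate 2, A_25_P00012789 had a mean intensity of 637 but a median of 32.7, and the software marked 2 of its 8 spots as outliers.

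The call between the lines for hsa-miR-615-3p changed with the processing. The log2 difference was 0.70 (SE 0.504, 95% CI -0.73 to 2.13, adjusted p = 0.287) in the limma fit after quantile normalization, which is not a call. With scaling to the 75th percentile it was 1.43 (adjusted p = 5.06e-05) and with no scaling 1.72 (adjusted p = 0.000940). In these fits too it was tested only through BT474, with SKBR3 at the floor. Quantile normalization set its BT474 values to 4.68, 3.49 and 4.61 (log2) on 3 arrays and to the floor on trastuzumab replicate 2, the array with its highest signal before normalization.

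**Figure D4:**
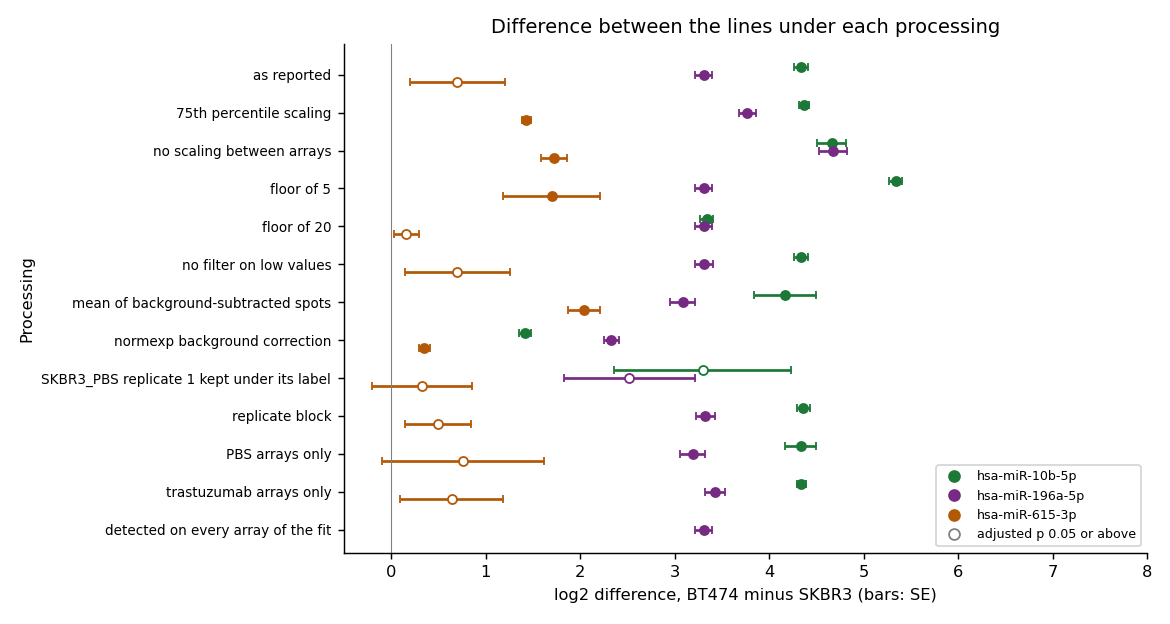
log2 difference between the lines (BT474 minus SKBR3, horizontal axis) of the 3 detected members under each processing (vertical axis); bars are the SE, and open circles have an adjusted p of 0.05 or above. hsa-miR-10b-5p and hsa-miR-196a-5p are filled except where the array labelled SKBR3 PBS replicate 1 is kept, hsa-miR-615-3p is filled under 5 settings, and the size for hsa-miR-10b-5p and hsa-miR-615-3p depends on the floor because SKBR3 lies on it.

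hsa-miR-10a-5p and hsa-miR-196b-5p were detected on no array. For hsa-miR-10a-5p, 2 of 120 spots in BT474 and 0 of 90 in SKBR3 were well above background, and the mean intensity of its probes was 22.8 to 118 in BT474 and 3.23 to 52.2 in SKBR3. For hsa-miR-196b-5p these were 0 of 120 and 1 of 90 spots, and the means of its probes ran from -11.4 to 109 in BT474 and from 40.5 to 75.8 in SKBR3. These ranges overlapped between the lines. As single probes, the 4 probes of both miRNAs differed between the lines by -0.10 to 0.17 on the log2 scale, with limma adjusted p from 0.380 to 0.668. Many of these probe values lay at the floor, on which these sizes and p-values depend. A level below detection here does not show absence.

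The opposite arms of these hairpins were read as well. hsa-miR-10a-3p, hsa-miR-10b-3p, hsa-miR-196a-3p, hsa-miR-196b-3p and hsa-miR-615-5p were detected on 0 of 7 arrays, also where the member of the same hairpin was detected. hsa-miR-3185, whose hairpin lies 287 bases from HOXB13, was detected on no array.

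Outside the clusters, hsa-miR-99a-5p, hsa-miR-99b-5p and hsa-miR-100-5p are relatives of the miR-10 family. Their seed is ACCCGUA, in which the U that follows ACCC in the hsa-miR-10a-5p seed ACCCUGU is missing. Their sequences, with the seed in capitals, are shown for comparison with hsa-miR-10a-5p.
hsa-miR-99a-5p: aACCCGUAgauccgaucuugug
hsa-miR-99b-5p: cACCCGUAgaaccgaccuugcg
hsa-miR-100-5p: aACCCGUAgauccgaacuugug
The longest run shared with hsa-miR-10a-5p was 11 bases in hsa-miR-100-5p, 10 in hsa-miR-99a-5p and 5 in hsa-miR-99b-5p. All 3 were detected on all 7 arrays, unlike the HOX members of the family. The summed signal of hsa-miR-99a-5p was 1649 to 2979 in BT474 and 613 to 713 in SKBR3. For hsa-miR-100-5p it was 142 to 243 in BT474 and 44.6 to 57.6 in SKBR3. hsa-miR-99a-5p was called higher in BT474 after quantile normalization (0.48, SE 0.0811, limma adjusted p = 0.00889), while hsa-miR-100-5p (0.60, SE 0.205, adjusted p = 0.0637) and hsa-miR-99b-5p (0.094, SE 0.0321, adjusted p = 0.0643) were not.

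The question of the study, which miRNAs respond to trastuzumab, was asked within each line. In BT474, the log2 difference (trastuzumab minus PBS) was 0.0049 for hsa-miR-10b-5p (SE 0.109, 95% CI -0.35 to 0.36, limma adjusted p = 1). For hsa-miR-196a-5p it was -0.17 (SE 0.112, 95% CI -0.53 to 0.20, adjusted p = 0.420). With no scaling hsa-miR-196a-5p turned to 0.066. For hsa-miR-615-3p it was -0.12 (SE 0.732, 95% CI -2.51 to 2.27, adjusted p = 0.946), with an interval that takes in large changes of either sign. None of these 3 members was called with limma, 0 had an unadjusted p under 0.05 and 0 passed in the methods' t-test, beside 41 (14.4%) of the 285 miRNAs tested at an adjusted p under 0.05. By the thresholds of the methods, an unadjusted p under 0.05 and a fold above 2, 40 (14%) passed.

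In SKBR3, only hsa-miR-196a-5p could be tested, with 1 PBS array that was assumed to vary like the trastuzumab arrays. Its log2 difference was -0.41 (SE 0.134, 95% CI -1.24 to 0.43, limma adjusted p = 0.298) after quantile normalization, but 0.082 with scaling to the 75th percentile and 0.26 with no scaling. Neither direction was called. Some calls over all miRNAs of this fit have no measured spread. hsa-miR-184 and hsa-miR-762, among others, had equal values on both trastuzumab arrays, beside the single PBS array. The share of calls is to be read with that limit. Over the 227 miRNAs tested, 15 (6.61%) had an adjusted p under 0.05, and 26 (11.5%) passed the thresholds of the methods.

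The study lists hsa-miR-10b-5p among the miRNAs most lowered by trastuzumab in SKBR3, with 2 replicates for each treatment. In SKBR3, where hsa-miR-10b-5p was not detected here, its values below detection gave negative differences (trastuzumab minus PBS) that were not called at an adjusted p under 0.05. The array labelled SKBR3 PBS replicate 1, kept under its label, brings the BT474 signal of 203 into the SKBR3 PBS group, and the log2 difference became -2.12 (SE 1.70, limma adjusted p = 0.619). In the log2 values that the authors deposited, the brighter probe was at 8.87 on that array, 6.94 on SKBR3 PBS replicate 2, and 5.66 and 4.95 on the trastuzumab arrays. Without that array, the mean of both probes in the deposited log2 values differed by -1.17 (SE 0.412, limma adjusted p = 0.675), which passes the thresholds of the methods, with an unadjusted p under 0.05, and not the adjusted one. The mean of background-subtracted spots differed by -1.74 (SE 0.771, limma adjusted p = 0.472) and normexp by -0.15 (SE 0.0795, adjusted p = 0.642). The brighter probe fitted on its own from its probe signal differed by -0.34, a size held down by the floor, on which both trastuzumab arrays lie. With a single PBS array, that fit has no measured spread and no p is given. Apart from the fit that keeps SKBR3 PBS replicate 1, each of these fits sets a single PBS array against 2 trastuzumab arrays. None was called. The line difference of hsa-miR-10b-5p was 3.29 (adjusted p = 0.0688) and that of hsa-miR-196a-5p 2.52 (adjusted p = 0.0688, limma) with the array kept, so that both calls between the lines were lost.

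**Figure D5:**
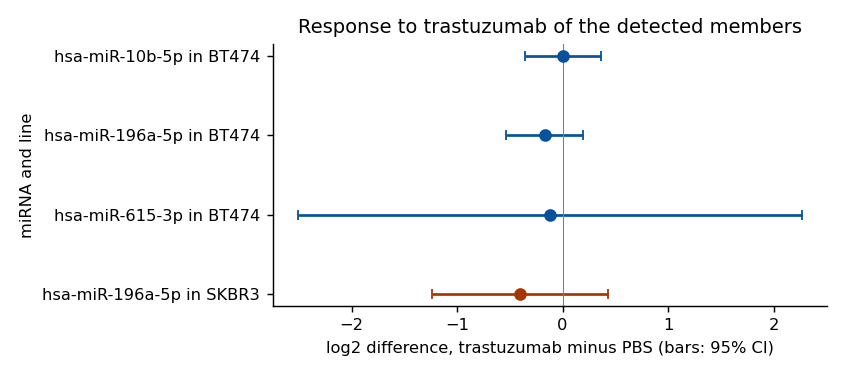
log2 difference between trastuzumab and PBS (horizontal axis; bars are 95% CI) for the members that could be tested in each line (vertical axis). All 4 intervals include 0, and that of hsa-miR-615-3p in BT474 is the widest, from -2.51 to 2.27.

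The difference between the responses (BT474 minus SKBR3) was also tested on the 7 arrays. It was 0.0049 for hsa-miR-10b-5p and -0.12 for hsa-miR-615-3p, which repeats their BT474 responses because SKBR3 lies at the floor, so that no difference in response could be tested for them. For hsa-miR-196a-5p it was 0.24 (SE 0.183, limma adjusted p = 0.481, unadjusted p = 0.268). It turned to -0.47 with scaling to the 75th percentile and to -0.19 with no scaling. Of the 305 miRNAs tested, 49 (16.1%) were called, hsa-miR-196a-5p not among them.

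The miRNAs with the pattern most like each detected member were found from the root mean square difference of the normalized log2 values over the 7 arrays, after the mean of each miRNA was taken off, among the 304 miRNAs detected on at least 1 array that are not members. For hsa-miR-10b-5p they were hsa-miR-193a-5p (0.0674), hsa-miR-340-5p (0.0818) and hsa-miR-4465 (0.242). All 3 were detected on the 4 BT474 arrays and on no SKBR3 array. For hsa-miR-196a-5p they were hsa-miR-532-5p (0.143), hsa-miR-575 (0.149) and hsa-miR-342-5p (0.205), which were not detected in SKBR3, whereas hsa-miR-196a-5p was. For hsa-miR-615-3p they were hsa-miR-200b-5p (0.0947), hsa-miR-19b-1-5p (0.124) and hsa-miR-141-5p (0.185), detected on 4, 3 and 2 arrays. These values share the arrays, the normalization and the floor, and describe the likeness only.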

How the data were processed

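The authors deposited the intensity values as Feature Extraction 11.5.1.1 wrote them, without normalization between arrays: spot medians with local background, background-subtracted spots, sums per probe and per miRNA, and flags. The authors also deposited log2 values for each probe, quantile normalized as the methods of the study state, and their lowest value is the log2 of 10. Deposited flags of detection and background are on or off, with no other scale.

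Sums per miRNA from the 7 distinct arrays were quantile normalized, and log2 values were used with a floor at 10. limma 3.58.1 in R 4.3.3 compared treatments within each line and, with a mean for each group, the lines and their responses. A miRNA was tested where it lay above the floor on at least 1 array of the fit. Calls needed an adjusted p under 0.05 (Benjamini-Hochberg). The number of arrays limits the precision. The 5 members and the lists were chosen with earlier results of these data known. Named were the members, the other arms and HOX cluster miRNAs, the miR-99/100 relatives, and the 3 miRNAs most like each member detected on at least 3 arrays. The fits were tested on simulated data without a floor or normalization, so that this test does not cover values at the floor. Alternatives covered scaling, floor, filter, background, probes, the shared array and left-out arrays, of which the fit of single probes was added after seeing the data. Tables and figures used Python 3.11.15, pandas 2.3.3 and matplotlib 3.10.9.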

Additional observations from a re-analysis of the deposited data

How the results depend on the processing

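Between the lines, hsa-miR-10b-5p kept its direction and call under 17 of 18 alternatives and hsa-miR-196a-5p under 18 of 19. The exception was the array labelled SKBR3 PBS replicate 1 kept under its label (3.29 and 2.52). In the summed signals without that array, hsa-miR-10b-5p passed the filter only through BT474, with SKBR3 at the floor. Its calls in those fits depend on the floor and give no further support. The sizes ran from 1.42 (normexp) to 5.34 (floor of 5) for hsa-miR-10b-5p. For hsa-miR-196a-5p they ran from 2.33 (normexp) to 4.68 (no scaling). hsa-miR-615-3p was called with the 75th percentile (1.43), no scaling (1.72), a floor of 5 (1.70), the mean of background-subtracted spots (2.04) and normexp (0.35), and not under the other 13. The cause was not tested. Leaving out single arrays gave 4.20 to 4.46, 3.26 to 3.50 and 0.52 to 0.92 for the 3 members. No response to trastuzumab of a member was called at an adjusted p under 0.05 under any alternative run; by the thresholds of the methods, hsa-miR-10b-5p in SKBR3 passed in the deposited log2 values (-1.17).

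Directions of uncalled values turned. In BT474, hsa-miR-10b-5p was -0.22 with the 75th percentile and -0.021 with background-subtracted spots, and -0.10 to 0.13 when arrays were left out; with no scaling hsa-miR-196a-5p was 0.066 and hsa-miR-615-3p 0.085, the latter -0.62 to 0.40 with arrays left out. In SKBR3, hsa-miR-196a-5p was 0.082 with the 75th percentile, 0.26 with no scaling and 0.054 in the deposited log2 values. Summed signals without the shared array give no test of the difference in response for hsa-miR-10b-5p and hsa-miR-615-3p, because SKBR3 lies at the floor. The value of that difference turned for hsa-miR-10b-5p with the 75th percentile (-0.22), the replicate block (-0.040) and left-out arrays (-0.10 to 0.13). It turned for hsa-miR-196a-5p with the 75th percentile (-0.47), no scaling (-0.19), background-subtracted spots (-0.0079) and normexp (-0.025). It turned for hsa-miR-615-3p with no scaling (0.085), background-subtracted spots (0.32), the shared array kept (0.66), the replicate block (0.29) and left-out arrays (-0.62 to 0.40).

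Counts over all miRNAs moved more than 1.5 times. Here the methods' t-test stands for an ordinary t-test on each miRNA, without the random variance model of the study. For SKBR3, fits with an array left out used the remaining arrays of both lines together, unlike the main fit on SKBR3 arrays alone. Their counts therefore compare with 7 arrays in 1 fit and not with the main fit. In BT474 (41 calls) they were 19 with no scaling, 3 with no filter, 0 with background-subtracted spots, deposited values or single probes, 77 with 7 arrays in 1 fit, 5 in the methods' t-test and 25 to 36 with an array left out. In SKBR3 (15) they were 0 with the 75th percentile, background-subtracted spots, normexp, deposited values, single probes or miRNAs detected on every array, 26 with no filter, 3 with the shared array, 47 with 7 arrays in 1 fit, 32 in the methods' t-test and 46 to 53 with an array left out. Between the lines (209, of which 102 higher in BT474) they were 134 with no filter, 378 (159 higher) with background-subtracted spots, 374 (173) with normexp, 6 (3) with the shared array and 646 (239) with single probes, and 165, 52 and 66 were higher with no scaling, miRNAs detected on every array and PBS arrays only. For the difference in response (49) they were 25 with no scaling, 8 with no filter, 23 with miRNAs detected on every array, 5 with the shared array and 29 to 74 with an array left out.

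The same replicate number does not pair arrays by the labels, and deviations of BT474 arrays with the same number correlated at 0.209 over 221 miRNAs. With the replicate block there were 0 calls in BT474 and 22 for the difference in response; hsa-miR-10b-5p and hsa-miR-196a-5p stayed called between the lines (4.36 and 3.33), and no call of a member changed. Low signals limit hsa-miR-615-3p, hsa-miR-10a-5p and hsa-miR-196b-5p.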
